A study of Mus musculus with 8 samples.

Results

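The 10 genes examined here have known roles in the calcification of the artery wall, and their N6-methyladenosine (m6A) was measured in mouse primary vascular smooth muscle cells (VSMCs). They were the regulators Runx2, Sox9 and Msx2, the ligands Bmp2 and Bmp4, and the matrix and mineral genes Spp1, Alpl, Mgp, Enpp1 and Ank, which makes 10 of the 55450 genes in the GENCODE M21 annotation of the mouse genome build GRCm38 (mm10). A peak was assigned to one of these genes when its summit, the point of highest enrichment, lay in an annotated exon of that gene. By that rule the genes held 5 of 11158 summits for shCTR A and 6 of 8655 for shCTR B, and 10 of 13675 summits for shMettl14 A and 7 of 9256 for shMettl14 B. The rule takes the genes by name and uses no measured value.

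In a calcifying artery, smooth muscle cells can give up contractile genes and take on a programme that resembles that of bone or cartilage cells. Runx2, Sox9 and Msx2 are transcription factors of that programme, and bone morphogenetic proteins such as Bmp2 and Bmp4 are secreted signals that induce it. Mineral deposition is then set by the balance between phosphate, which forms crystals, and inhibitors such as pyrophosphate and matrix proteins. m6A is a mark that the Mettl3 and Mettl14 complex writes into RNA, usually within the motif DRACH (any base but C, then A or G, then AC, then any base but G) and often near the stop codon, and it is known to affect how messenger RNA is processed, translated and decayed.

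To compare m6A between control and knockdown cells, RNA was fragmented, enriched with an anti-m6A antibody (IP) and sequenced beside the unenriched input. All cells were aortic VSMCs of C57BL/6J mice, without any further genotype, and all had been transduced with lentivirus. The shCTR cells received a hairpin against a plant microRNA sequence and the shMettl14 cells a hairpin against Mettl14, and each arm had replicates A and B (n = 2). The series text does not say whether A and B were separate cultures, so a p-value here measures only the spread between lists, which may be technical. The labels name a single Mettl14 hairpin group, so effects of the hairpin itself cannot be told apart from those of the knockdown. The peak lists do not measure transcript level, so the knockdown of Mettl14 was not checked here. In bulk samples such as these, fewer cells of a kind and less RNA per cell cannot be told apart.

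The lists give no read totals. From the deposited values the number of IP fragments over each summit (the pileup) and the expected number without enrichment (the local background) were recovered, and all 28 summits in the calcification genes had a single whole-number solution. The median pileup over all summits of a list was between 13 and 16 fragments, so most single peaks rest on few fragments. Summits differed between lists in another way: the mean number of summits per interval was 1.31, 1.23, 1.51 and 1.32 in shCTR A, shCTR B, shMettl14 A and shMettl14 B. The shortest interval was 141, 170, 97 and 112 bp in the same order, shorter in both shMettl14 lists.

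m6A summits were found in the regulators and ligands and in none of the matrix and mineral genes. Sox9, Msx2 and Bmp4 had a summit in every list, Bmp2 in shCTR B and shMettl14 B, and Runx2 in shMettl14 A alone. Spp1, Alpl, Mgp, Enpp1 and Ank had no summit in any list. Thus 3 of 10 genes (30%) were marked in all 4 lists and 5 of 10 (50%) in at least 1, against 15.96% and 25.3% of 21951 protein-coding genes. By role, 2 of 3 regulators and 1 of 2 ligands were marked in all 4 lists, and 0 of 5 matrix and mineral genes in any.

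**Figure D1:**
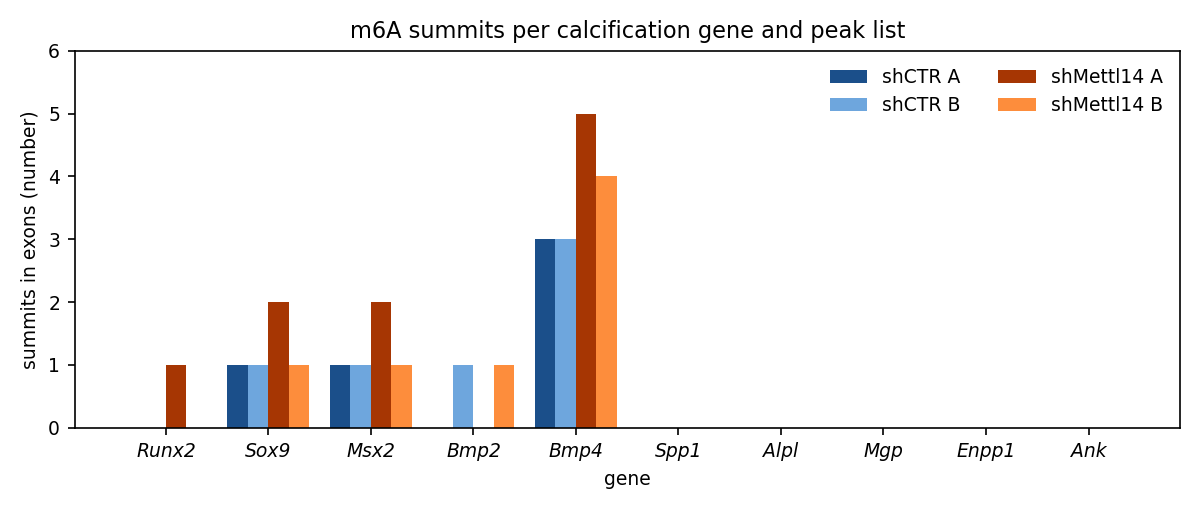
Number of m6A summits in exons (vertical axis) of each of the 10 calcification genes (horizontal axis), with 1 bar for each of the 4 peak lists. Bmp4 holds most summits, 3 in each shCTR list against 5 and 4 in the shMettl14 lists, and the 5 matrix and mineral genes at the right hold none.

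The sequences around the summits show candidate motifs of each peak. Each line below gives 25 nt of the GRCm38 transcript strand, 5′ to 3′, centred on the A of a DRACH motif, with the motif in capitals. For each group of neighbouring summits the DRACH motif nearest to the median summit is shown, and any GGACT within 50 nt of it. They are shown because they mark places under the peaks described next, and a motif is not evidence that its A was methylated.
Sox9, 3′ UTR, chr11:112785703-112785727, plus strand: agagactttaAGACTttgtctgagc
Msx2, coding, chr13:53468349-53468373, minus strand: gcaagaggcgGAACTggaaaagctg
Msx2, 3′ UTR, chr13:53468137-53468161, minus strand: cagatggaccAGACTccaggatgga
Bmp2, coding, chr2:133561111-133561135, plus strand: tagtgaatcaGAACAcaagtcagtg
Bmp2, coding, chr2:133561274-133561298, plus strand: gcaccaagatGAACAcagctggtca
Bmp4, coding, upstream summit of shMettl14 A, chr14:46385909-46385933, minus strand: agctcctgcgGGACTtcgaggcgac
Bmp4, coding, first peak, chr14:46384398-46384422, minus strand: gtccttcgctGGACCcgggaaaagc
Bmp4, coding, second peak, chr14:46384154-46384178, minus strand: agaagaataaGAACTgccgtcgcca
Bmp4, coding, second peak, chr14:46384127-46384151, minus strand: cactatacgtGGACTtcagtgacgt
Bmp4, coding, last peak, chr14:46383905-46383929, minus strand: tggatgagtaTGACAaggtggtgtt
Single summits had 0 to 5 DRACH motifs within 50 nt, so a window is often 1 of several candidates. For Sox9 the printed motif is the nearest to the shCTR summits, whereas the shMettl14 summits lay nearest to GGACA or AGACA. For the last Bmp4 peak it is also the nearest to the shCTR summits only, and the shMettl14 summits lay nearest to GGACA. For the first Bmp4 peak it is the nearest to the shMettl14 summits only, and the shCTR summits lay nearest to TGACA or AAACT.

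Among the regulators, Sox9 carried the most enriched peak. Sox9 (ENSMUSG00000000567.5, chr11:112782224-112787760, plus strand) encodes a transcription factor that drives the cartilage programme. Its summits lay in the 3′ UTR, 216 and 209 nt past the first base of the stop codon for shCTR A and shCTR B, 153 and 263 nt past it for shMettl14 A and 258 nt past it for shMettl14 B. The highest pileup was 46, 33, 32 and 34 fragments in shCTR A, shCTR B, shMettl14 A and shMettl14 B, over a background of 1.03, 0.860, 0.598 and 0.413. The raw pileup was highest in shCTR A, but multiplied by a factor that brings the summed pileups of the shared regions to one level the values were 40.2, 31.2, 33.0 and 41.1, and the groups overlapped. Fold enrichment, the pileup over the background with 1 added to each, was therefore 23.2, 18.3, 20.7 and 24.8. Within its own list the Sox9 summit was more enriched than nearly all others, at percentile 98.8, 95.04, 98.9 and 99.1 of fold enrichment. Both shMettl14 values were higher, but shCTR A was close to them and only shCTR B stood lower.

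Msx2 was the calcification gene whose enrichment ranked lower in both shMettl14 lists. Msx2 (ENSMUSG00000021469.9, chr13:53466884-53473074, minus strand) encodes a homeobox factor that acts downstream of bone morphogenetic proteins in bone-forming cells. Its coding summit lay 165 nt before the stop codon in both shCTR lists, 125 nt before it in shMettl14 A and 144 nt before it in shMettl14 B. Fold enrichment was 20.2 and 14.3 in shCTR A and shCTR B and 9.98 and 11.3 in shMettl14 A and shMettl14 B, and the groups did not overlap. As percentiles of the list these values were 97.4, 86.9, 73.9 and 75.4, which gave means of 92.1 ± 7.43 in shCTR and 74.7 ± 1.12 in shMettl14 (SD, n = 2). A fall of this kind in both shMettl14 lists was seen for 14.3% of the 4929 regions shared by all lists. The pileup did not follow this order, with 33, 20, 33 and 15 fragments in shCTR A, shCTR B, shMettl14 A and shMettl14 B. What set shMettl14 A apart was its background of 2.41 (percentile 85.3 of that list), against 0.684, 0.469 and 0.413 in shCTR A, shCTR B and shMettl14 B. A further summit of Msx2, in the 3′ UTR 88 nt past the stop codon, had 14 fragments and was listed in shMettl14 A only.

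Runx2 was close to the limit of detection. Runx2 (ENSMUSG00000039153.16, chr17:44495987-44814797, minus strand) encodes the master transcription factor of bone-forming cells. Its only summit, at position 44736062 in shMettl14 A, had 5 fragments (95% Poisson interval 1.62 to 11.7, which covers counting error only) over a background of 0.451. The fold enrichment of 4.14 put it at percentile 4.33 of its list. The summit also lay in an exon of the antisense gene Runx2os1, and since the lists give no strand, reads of the pair cannot be told apart. No summit fell in the coding transcript used to measure stop codon distances in Runx2, whose longest coding transcript has 117 DRACH motifs.

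Of the ligands, Bmp4 had the deepest peaks of all 10 genes and Bmp2 some of the shallowest. Bmp4 (ENSMUSG00000021835.15, chr14:46383520-46390669, minus strand) encodes a secreted signal that induces bone and cartilage formation, and nearly its whole last exon, 1193 nt long, was covered by a region of 1037 bp (chr14:46383674-46384710). Summits recurred in all 4 lists at separate places, all of them in the coding sequence. The first group lay between 601 and 533 nt before the stop codon, with pileups of 91, 122, 75 and 83 fragments in shCTR A, shCTR B, shMettl14 A and shMettl14 B. The second group lay between 373 and 232 nt before it, with 94, 106, 73 and 70 fragments at its highest summit. The last group lay between 67 and 1 nt before it, with 59, 78, 64 and 61 fragments. These raw pileups of the first and second groups were lower in both shMettl14 lists, whereas those of the last group overlapped. The highest pileups summed over all shared regions were lower in both shMettl14 lists too. They were 137765 and 127277 in shCTR A and shCTR B and 116612 and 99383 in shMettl14 A and shMettl14 B.

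The background at Bmp4 was high as well. At the summit of highest fold enrichment it was 6.79, 6.75, 4.16 and 4.34 in shCTR A, shCTR B, shMettl14 A and shMettl14 B. That summit belonged to the second group in shCTR A and to the first in the other lists. At the highest summit of the first and of the second group the background was lower in both shMettl14 lists. At the last group it was higher in both, with 5.66, 5.13, 6.91 and 5.99 in that order. Fold enrichment at the most enriched summit was 12.2, 15.9, 14.7 and 15.7 in that order, and shCTR B and both shMettl14 lists were alike. By pileup, Bmp4 stood at percentile 99.4 or above in every list, but by fold enrichment at 81.0, 90.8, 92.9 and 91.1. As for Sox9, the percentile by fold enrichment was higher in both shMettl14 lists, which was so for 17.3% of the shared regions, and shCTR B was close to them. Scaled by the same factors as for Sox9, the highest pileups were 82.1, 115, 77.3 and 100 fragments, and the groups then overlapped, with means of 98.7 ± 23.5 and 88.9 ± 16.3 (SD, n = 2).

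More summits of Bmp4 were listed after Mettl14 knockdown, 3 and 3 in shCTR A and shCTR B against 5 and 4 in shMettl14 A and shMettl14 B. The second group held 1 summit in each shCTR list and 2 in each shMettl14 list. The fifth summit of shMettl14 A lay apart, 996 nt before the stop codon (chr14:46385813-46386063), with 29 fragments over a background of 7.97 and a fold enrichment of only 3.35 (percentile 0.570). With 2 lists against 2 the exact permutation test (two-sided) gave p = 0.333, the smallest it can give. More summits in both shMettl14 lists were found for 8.35% of the 6075 genes with a summit and fewer for 1.98%. Within the long Bmp4 region the counts were 3, 3, 4 and 4, and such a rise was found in 9.58% of the shared regions and a fall in 0.629%. In both shMettl14 lists the shortest interval was shorter and the mean number of summits per interval higher. In that mean shCTR A (1.31) and shMettl14 B (1.32) were nearly alike. The part of either in the difference in Bmp4 summits was not tested.

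Bmp2 (ENSMUSG00000027358.6, chr2:133552159-133562885, plus strand) encodes a closely related ligand that promotes mineralisation of smooth muscle cells. Only the B lists had a summit, both in the coding sequence. In shCTR B it lay 438 nt before the stop codon with 8 fragments (95% Poisson interval 3.45 to 15.8), and in shMettl14 B 590 nt before it with 5 fragments (1.62 to 11.7). Backgrounds were 0.187 and 0.0418 and fold enrichments 7.58 and 5.76, at percentiles 45.03 and 20.02 of the lists. The intervals of both lists overlapped, so they counted as 1 region (chr2:133560960-133561481), with 1 list of each hairpin. A pair of lists without a summit does not show that Bmp2 lacked m6A at this depth.

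**Figure D2:**
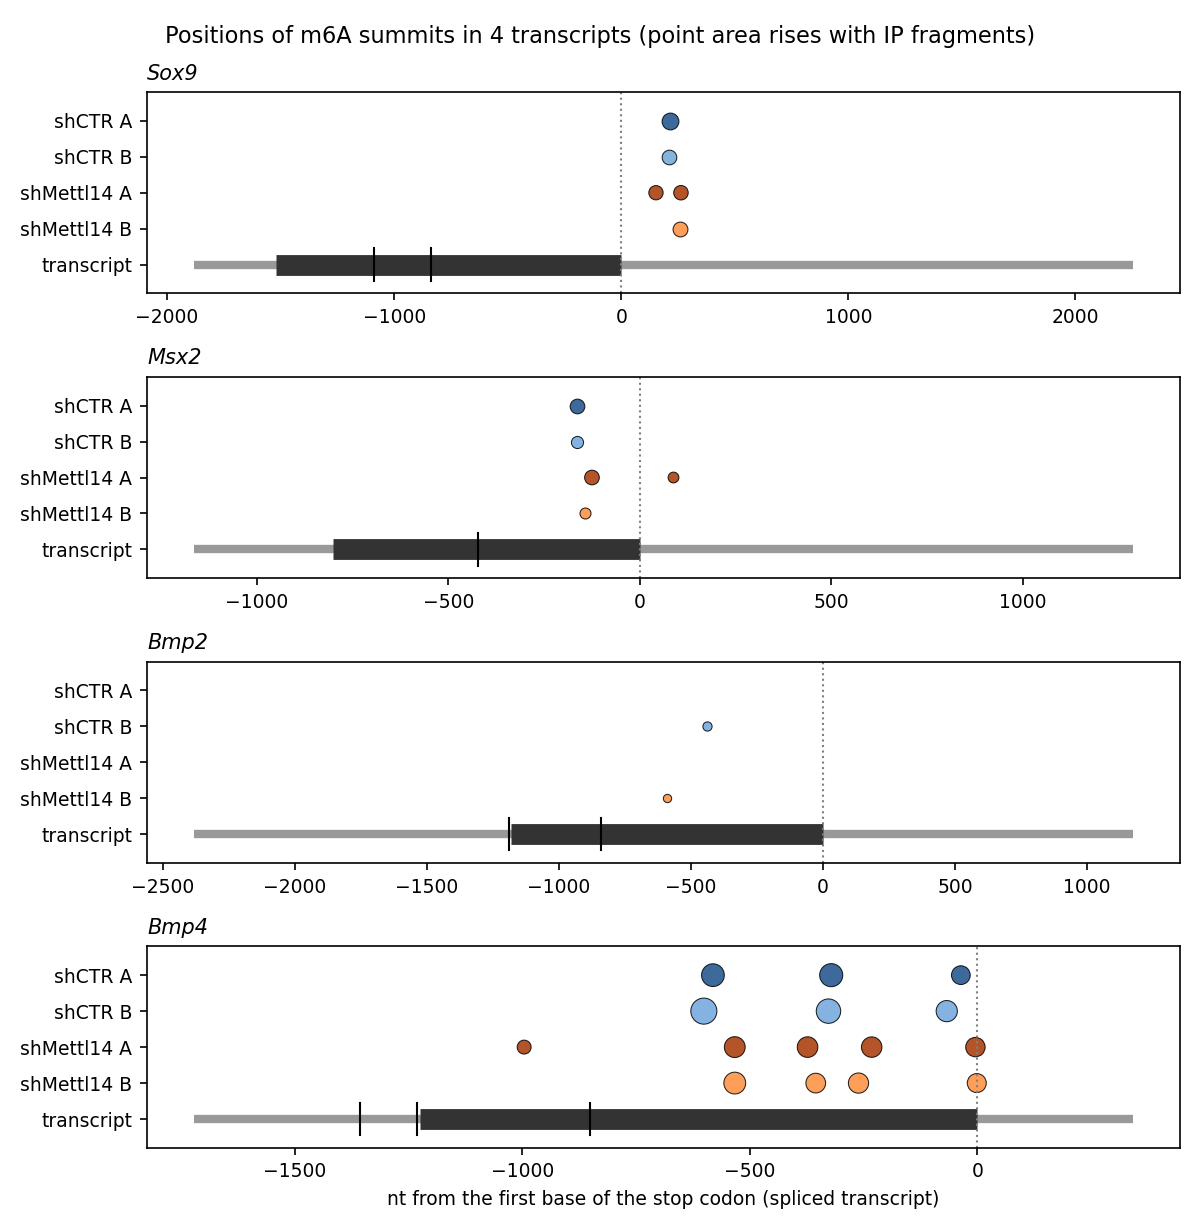
Summit positions in the spliced transcripts of Sox9, Msx2, Bmp2 and Bmp4, in nt from the first base of the stop codon (dotted line), with 1 row of points per peak list and point area rising with the number of IP fragments. In the transcript drawn under each set of points the thick bar is coding sequence, the thin bar UTR and the vertical ticks exon junctions; the Sox9 summits sit 153 to 263 nt past the stop codon and the recurrent Bmp4 summits fill the last 601 nt before it.

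**Figure D3:**
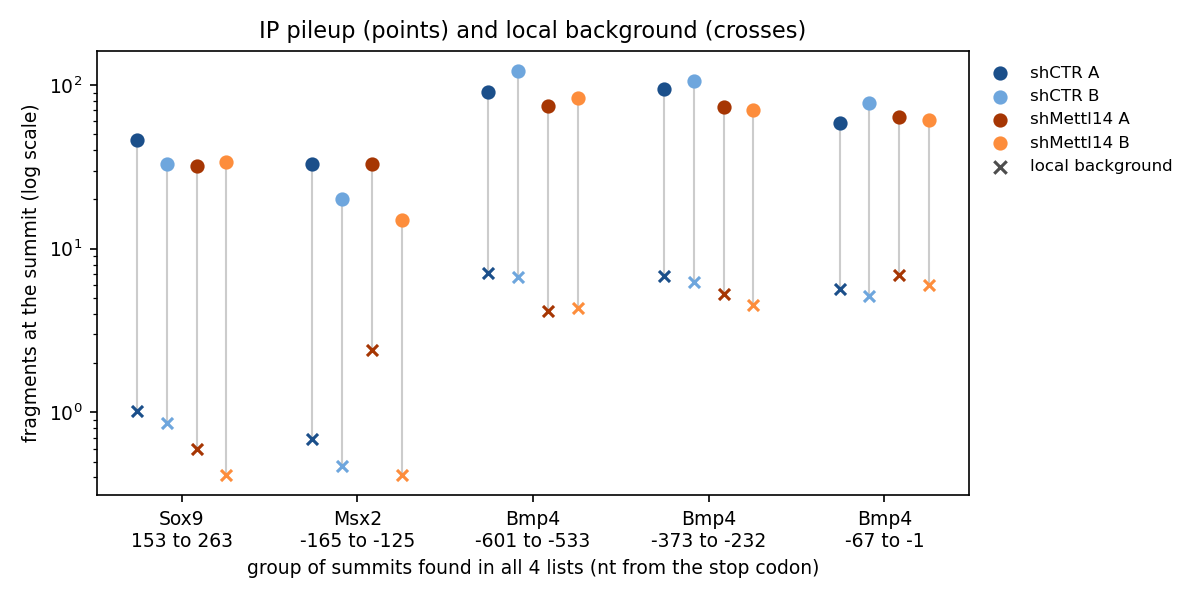
IP fragments at the highest summit (points) and the local background there (crosses), on a log scale, for the groups of summits found in all 4 lists, with 1 colour per list. Labels give the gene and the range of positions in nt from the stop codon. The cross of shMettl14 A at Msx2 (2.41) lies above the other crosses of that gene, and the Bmp4 points lie between 59 and 122 fragments.

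To test whether enrichment differed after Mettl14 knockdown, each region shared by all 4 lists was ranked by fold enrichment within its list, ranks were turned into normal scores, and the scores were compared with limma. Of 6 regions in calcification genes, 3 were found in all 4 lists (43.4% of all 11361 regions were) and were tested. None passed an adjusted p of 0.05 and none an unadjusted p of 0.05, against 0% and 4.93% of the 4929 regions tested. Msx2 lay at the edge of the unadjusted threshold and passed it in 5 of 12 alternatives. The score of Msx2 was lower in shMettl14 (change -1.04 ± 0.51 SE, adjusted p = 0.985 by limma, unadjusted p = 0.0520), and 2.52% of regions were lower at an unadjusted p of 0.05. Sox9 changed by 0.33 ± 0.50 (adjusted p = 0.999 by limma) and Bmp4 by 0.31 ± 0.50 (adjusted p = 0.999 by limma). The values of Sox9 and Bmp4 were smaller than their standard errors.

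The same regions were compared by their fragments alone, summed over the lists of a group and set against all shared regions with Fisher's exact test, which compares these libraries and not the hairpins. Sox9 had 79 fragments in shCTR and 66 in shMettl14, a log2 ratio of 0.04 (95% interval -0.46 to 0.53, exact p = 0.933). Msx2 had 53 and 48, a log2 ratio of 0.15 (-0.44 to 0.74, exact p = 0.618). Bmp4 had 216 and 158, a log2 ratio of -0.16 (-0.46 to 0.15, exact p = 0.323). The test passed an unadjusted 0.05 for 2.56% of shared regions and for none of Sox9, Msx2 and Bmp4. As percentiles of pileup, the groups overlapped for each of these regions, whereas 14.1% of shared regions were lower and 15.7% higher in both shMettl14 lists. The direction of Msx2 thus differed between the measures: its fold enrichment ranked lower in shMettl14 and its share of fragments was slightly higher. A loss of m6A that was uniform over all sites would leave ranks and shares unchanged and cannot be seen by either measure.

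**Figure D4:**
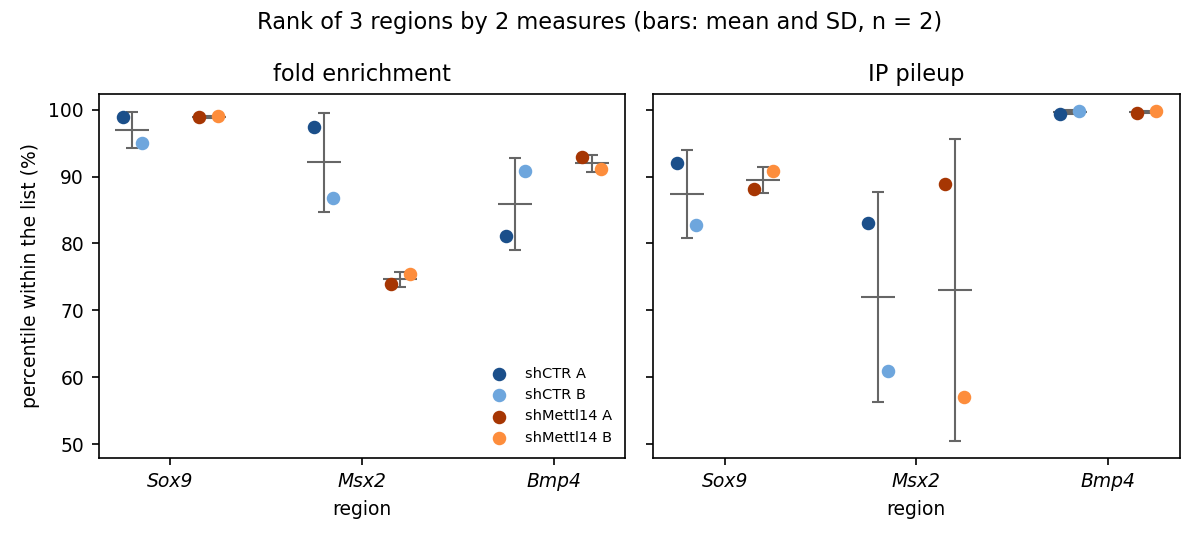
Percentile within the list (vertical axis) of the Sox9, Msx2 and Bmp4 regions by fold enrichment (left) and by IP pileup (right), 1 point per list, with the mean and SD of each group (n = 2). By fold enrichment Msx2 falls from 97.4 and 86.9 in shCTR to 73.9 and 75.4 in shMettl14, while by pileup its groups overlap.

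No region of a calcification gene was present in both lists of one group and absent from both of the other, against 1.71% of all regions for shCTR and 1.79% for shMettl14. Of the 6 regions, 2 were found in exactly 1 list (29.1% of all regions were), the Runx2 region and the upstream Bmp4 region, both in shMettl14 A. Over all 10 genes the lists held 5.5 ± 0.707 summits in shCTR and 8.5 ± 2.12 in shMettl14 (SD, n = 2, exact permutation test, two-sided, p = 0.333). Per 10000 summits of a list this was 4.48, 6.93, 7.31 and 7.56 in shCTR A, shCTR B, shMettl14 A and shMettl14 B, so shCTR B was close to both shMettl14 lists. The difference of 3 summits became 1.5 without shMettl14 A and 4.5 without shMettl14 B. As distinct intervals the counts were 3, 4, 5 and 4, and the groups overlapped (exact permutation p = 0.667).

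The strongest summits of Sox9 and Msx2 lay nearer the 3′ end of the transcript in both shMettl14 lists. For Sox9 they moved from 216 and 209 nt past the stop codon in shCTR to 263 and 258 nt in shMettl14, a mean shift of 48 nt. In shMettl14 A that choice rests on 32 against 31 fragments, and its other summit, 153 nt past the stop codon, lay on the 5′ side of both shCTR summits. For Msx2 the shift was 30.5 nt in the same direction. For Bmp4 the strongest summit by pileup belonged to the second group in shCTR A and to the first in the other lists, and its positions overlapped between groups. Group by group, the first Bmp4 summits lay 581 and 601 nt before the stop codon in shCTR A and shCTR B and 533 nt before it in both shMettl14 lists. The last ones lay 36 and 67 nt before it in shCTR and 4 and 1 nt before it in shMettl14, so both of these groups were nearer the 3′ end in shMettl14. The second group did not follow, with summits 321 and 327 nt before the stop codon in shCTR A and shCTR B, 373 and 232 nt before it in shMettl14 A, and 355 and 261 nt before it in shMettl14 B. A shift toward the 3′ end in both shMettl14 lists was not particular to these genes. It was found in 55.5% of 4200 shared regions whose strongest summits lay in 1 transcript, and a shift toward the 5′ end in 3.52%. The median shift was 24.5 nt, against a median distance of 19 nt between the lists of 1 group.

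The position relative to the stop codon was set beside that of all summits. Within 200 nt of the stop codon lay 2 of 5 and 2 of 6 summits for shCTR A and shCTR B, and 4 of 9 and 2 of 7 for shMettl14 A and shMettl14 B, or 40%, 33.3%, 44.4% and 28.6%. The same share over all summits of the lists was 26.8%, 26.8%, 25.4% and 27.1%. The group means of the calcification genes, 36.7 ± 4.71% and 36.5 ± 11.2% (SD, n = 2), did not differ beyond their spread (exact permutation p = 1). Most of these summits were within 400 nt of the stop codon, 80%, 66.7%, 77.8% and 71.4%, where 40.4% to 42.0% of all summits lay. Bmp4 supplied 3, 3, 5 and 4 of the summits in the 4 lists, so the summits are not independent of each other.

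DRACH motifs were near almost every summit, as elsewhere in the lists. On the transcript strand a DRACH motif lay within 50 nt of 5 of 5, 6 of 6, 6 of 9 and 7 of 7 summits in shCTR A, shCTR B, shMettl14 A and shMettl14 B, and of 94.4% to 95.7% of all summits. The 3 summits without one were all in shMettl14 A: the coding and the 3′ UTR summits of Msx2 and the upstream summit of Bmp4, with the nearest motif 55, 66 and 62 nt away. GGACT, which is one form of DRACH, lay within 50 nt of 1 of 5, 0 of 6, 1 of 9 and 1 of 7 summits, all of them in the second group of Bmp4, and of 19.1% to 23.1% of all summits. The group means of this share were 10 ± 14.1% and 12.7 ± 2.24% (SD, n = 2, exact permutation p = 1).

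The matrix and mineral genes had no summit in an exon or an intron. Spp1 encodes osteopontin, a secreted protein of bone and of activated smooth muscle cells, and Alpl encodes the phosphatase that breaks down pyrophosphate. Mgp encodes matrix Gla protein, an inhibitor of artery calcification. Enpp1 makes pyrophosphate and Ank moves it or its precursor out of the cell, so loss of either favours mineral. Without transcript levels, a gene with no summit may have been unmarked or too weakly expressed for a call, and the lists cannot tell these apart. For comparison, 16393 of 21951 protein-coding genes had no summit in any list.

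The genes without a summit did not lack the motif. Enpp1 has the most DRACH motifs of the 10 longest coding transcripts, 141 in 6777 nt, and a last exon of 4063 nt. Ank has 64 motifs and a last exon of 1806 nt, Alpl 58 and 970 nt, and Spp1 35 and 815 nt. Mgp is the shortest, 617 nt with 8 motifs, no GGACT and a last exon of 354 nt. The genes marked in at least 2 lists lay within the range of the unmarked ones, with 81 motifs and 3089 nt for Sox9, 70 and 2012 nt for Bmp2, 44 and 1193 nt for Bmp4 and 36 and 1710 nt for Msx2. The last exons of Mgp, Spp1 and Alpl were shorter than that of any of these, and those of Ank and Enpp1 were not. Across all coding genes the share marked in all 4 lists rose with the last exon, from 3.01% below 500 nt to 9.39% from 500 to 1000 nt, 17.3% from 1000 to 2000 nt, 24.5% from 2000 to 4000 nt and 34.3% above. By these classes Mgp belonged to the least marked class, Spp1 and Alpl to the next, and Enpp1 and Runx2 to the most marked.

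**Figure D5:**
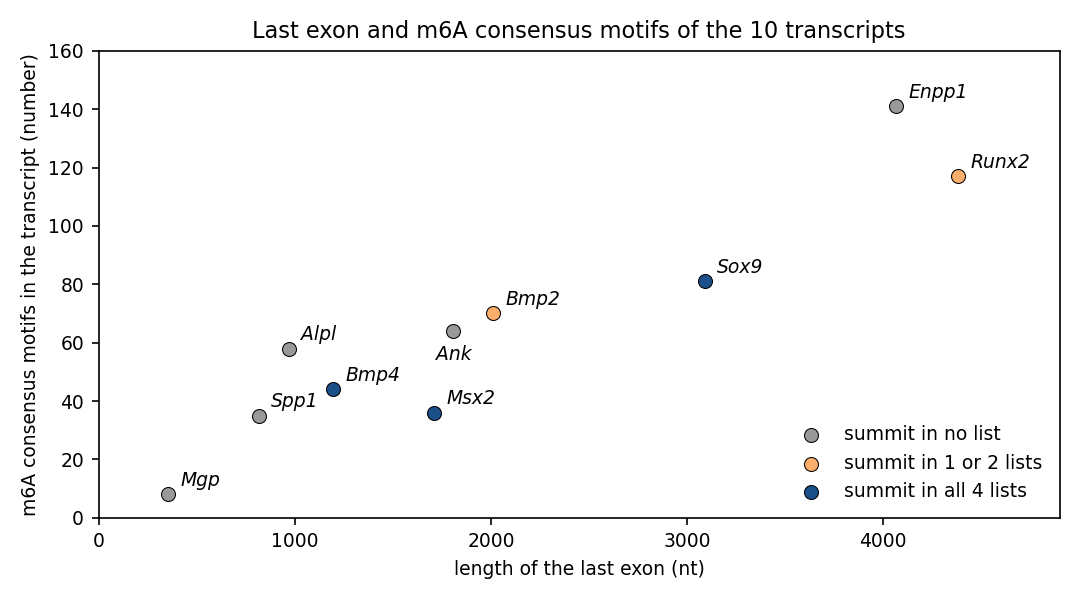
Number of DRACH motifs (m6A consensus motifs) in the longest coding transcript (vertical axis) against the length of its last exon in nt (horizontal axis), 1 point per calcification gene, coloured by the number of lists with a summit. Genes marked in all 4 lists (Sox9, Msx2, Bmp4) and genes marked in none (Spp1, Alpl, Mgp, Enpp1, Ank) overlap on both axes.

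Other genes of the calcification pathway were described in the same way, with 51 genes in 5 lists. Of these, 12 (23.5%) had a summit in all 4 lists, 23 (45.1%) in at least 1 and 28 in none, against 15.96% in all 4 and 25.3% in at least 1 of all protein-coding genes. The antagonists and early targets of bone morphogenetic proteins were marked most often, 4 of 10 in all 4 lists, among them Grem1, which binds the ligands, and Smad6, an inhibitor inside the cell. Of 10 osteogenic and chondrogenic factors, Twist1 and Sox5 were marked in all lists, and of 14 bone and cartilage matrix genes, Col1a1, Col2a1 and Acan. Of 8 genes of phosphate and pyrophosphate handling, the phosphate transporter Slc20a2 and the ectonucleotidase Entpd1 were. Among 9 other limiters of mineral deposition only Tnfrsf11b, the decoy receptor osteoprotegerin, had a summit in any list.

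None of the 14 pathway regions found in all 4 lists passed the adjusted threshold in the rank test, 6 had higher and 8 lower scores in shMettl14, and their median change was -0.21 against 0.00 over all regions tested. The region of Bambi, which encodes a decoy receptor for bone morphogenetic proteins, was the only one of these 14 at an unadjusted p under 0.05 in the rank test, which 4.93% of all regions passed (change -1.53 ± 0.50 SE, adjusted p = 0.796 by limma, unadjusted p = 0.00563). Its percentiles of fold enrichment were 84.2 and 88.3 in shCTR A and shCTR B and 33.2 and 44.8 in shMettl14 A and shMettl14 B. They were lower in both shMettl14 lists, as in 14.3% of shared regions. With pileups ranked, 0 of 14 pathway regions passed an unadjusted 0.05 in the rank test, and with equal numbers of top peaks 0 of 11. The pileups of Bambi were 13, 18, 9 and 9 fragments over backgrounds of 0.0752, 0.281, 0.601 and 0.310. Fisher's exact test on these pileups gave p = 0.315. In that test Col1a1, which encodes a chain of type I collagen, was the only pathway region at an unadjusted p under 0.05, with 66, 48, 37 and 31 fragments (log2 ratio -0.45, 95% interval -0.91 to -0.0045, exact p = 0.0441, adjusted p = 1), against 2.56% of shared regions. The local background at Col1a1 was 12.3, 10.8, 9.47 and 6.30 in the order of the lists, and so lower in both shMettl14 lists too. Its percentiles of fold enrichment were 11.9, 3.17, 1.18 and 4.59. In the rank test it changed by -0.30 ± 0.51 SE (unadjusted p = 0.569 by limma). No pathway region was found in both lists of 1 group and in neither of the other. Of all regions, 1.71% were so confined to shCTR and 1.79% to shMettl14. By gene, Phospho1, which encodes a phosphatase of matrix vesicles, had 1 summit in each shMettl14 list and none in shCTR, in separate regions with 9 fragments each, and both also lay in exons of Abi3 and Zfp652. Of the 6075 genes with a summit, 8.35% had more in both shMettl14 lists. The homeobox gene Msx1, the cartilage factor Sox6 and Id1, an early target of bone morphogenetic proteins, had summits in shMettl14 A only, and Id3, a relative of Id1, in shCTR A only. Of the 30 pathway regions, 8 were found in exactly 1 list, and 29.1% of all regions were.

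The labelled cell type was set against marker genes, with the limit that a list shows m6A and not expression. Of 7 markers of contractile smooth muscle, Lmod1 was marked in all lists (4, 4, 7 and 4 summits) and Myh11 in 3 lists, while Acta2, Tagln, Cnn1, Smtn and Myocd had no summit. None of 5 osteoblast markers had a summit in any list, and of 4 chondrocyte markers Acan (8, 7, 8 and 6 summits) and Col2a1 were marked in all, Col10a1 in 3 and Comp in none. Of 5 endothelial markers Pecam1 (1 summit in each) and Cdh5 (3, 4, 7 and 4) were marked in all lists, Kdr in 3 and the others in none. Of 4 fibroblast markers Pdgfra alone was marked, with 1 summit in each list. Of 4 macrophage markers, Csf1r alone had a summit, in shMettl14 B. For comparison, 25.3% of all protein-coding genes had a summit in at least 1 list, so most genes had none. Per the study's methods, the outer layer of the aorta was digested away and its inner lining scraped off before cells were grown out. The part of such cells in the peaks of the calcification genes was not tested.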

How the data were processed

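Mouse primary VSMCs transduced with shCTR or shMettl14 lentivirus were profiled by m6A-RIP-seq, with IP and input libraries of replicates A and B. Per the methods and labels, the authors used STAR for alignment to mm10, SAMtools to retain unique alignments, and MACS2 for peaks, with each IP set against its own input. Tool versions and peak calling options are not given in the sources used here. Each deposited list holds interval and summit positions, the fold enrichment at the summit (a ratio of IP over local background) and −log10 of the p-value and q-value. The authors also deposited 1 file per hairpin of intervals described as shared by both replicates. They are not exact intersections of the deposited lists, and for Bmp4 the shCTR file holds 3 intervals where each shCTR list holds 1. Input samples entered only through the peak calls.

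The Poisson relation between fold enrichment and −log10 p in the deposited lists was solved for a whole-number pileup, which fitted 100% of summits with an error below 0.001 in −log10 p. The lists hold no read totals, so depth per list is known only through the pileups. Summits were placed in exons of GENCODE M21, with stop codon distances from the coding transcript of longest coding sequence and motif content from the longest coding transcript. Intervals sharing at least 1 bp formed regions. Highest fold enrichments were ranked within lists, turned into normal scores and compared with limma 3.58.1 (R 4.3.3), with Benjamini-Hochberg adjustment over 4929 regions and no replicate block. Fisher's exact test, which the study's methods name for altered peaks without giving its inputs, was run on pileups summed over replicates and without a fold cut. It and exact permutation tests were run with scipy 1.17.1. Scripts were tested on simulated data. Alternatives were other ranked values, a stricter q-value (−log10 q of at least 5), the strongest 8655 peaks of each list, 50% overlap, other gene assignment and leaving out each list. Genes, lists and tests were chosen with earlier results of these data known. All 10 genes are named, and of the pathway genes those with summits in 1 group only or at an unadjusted p under 0.05 in the rank test, while others are named as examples of their list.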

Additional observations from a re-analysis of the deposited data

How the results depend on the processing

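In each of 12 alternatives no calcification region passed an adjusted p of 0.05 in the rank test. Without a replicate block the fits stand as given above. With the replicate letter as a replicate block, Msx2 changed by -1.04 (adjusted p = 0.825, unadjusted p = 0.0489), Sox9 by 0.33 (adjusted p = 0.970) and Bmp4 by 0.31 (adjusted p = 0.977), all by limma, and no call at the adjusted threshold changed. Deviations of same-lettered lists correlated at 0.0795, and the labels do not say what A and B share. Msx2 turned from lower to higher with pileups ranked (0.0908) and in Fisher's test (log2 ratio 0.152), and Bmp4 from higher to lower (-0.0243 and -0.156). Leaving out 1 list gave changes of 0.0411 to 0.622 for Sox9, -1.39 to -0.635 for Msx2 and -0.0250 to 0.620 for Bmp4, where the sign turned without shCTR A. Over all alternatives adjusted p was 0.970 to 1 for Sox9, 0.779 to 1 for Msx2 and 0.977 to 1 for Bmp4, and the unadjusted p of Msx2 fell below 0.05 in 5: with the block, centred log2 values (0.0467), the stricter q (0.0432), equal numbers of peaks (0.0440) and without shCTR B (0.0353, limma).

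The difference in summits ranged from 1.5 to 4.5 with 1 list left out and was 1 for distinct intervals. No region of the 10 calcification genes was confined to shCTR under any of 10 alternatives. With 1 list left out, 3.14% (without shMettl14 B) to 11.4% (without shCTR B) of all regions were confined to shCTR. Calcification regions confined to shMettl14 numbered 0 to 2 with 1 list left out. The 2 were Runx2 and the upstream Bmp4 region once shMettl14 B was dropped, when 14.5% of all regions were confined to shMettl14. For the other pathway genes, the deposited files of shared intervals gave 4 intervals in shCTR alone and 1 in shMettl14 alone, where the regions gave 0. Over the whole files 17.0% and 15.5% of intervals had no overlap in the other. Equal numbers of peaks gave 1 pathway region in shCTR alone (3.64% of all regions). Leaving out 1 list gave 0 to 2 pathway regions in shCTR alone (2 without shMettl14 A, 7.84% of all regions). In shMettl14 alone it gave 0 to 6 (6 without shMettl14 B, 14.5% of all regions). The difference in summits near stop codons, -0.159 percentage points, became 2.62 with equal numbers of peaks, 1.27 within 400 nt and -8.10 to 7.78 with 1 list left out. That for GGACT, 2.70 points, became 18.2 within 100 nt, -23.7 from interval midpoints and -7.30 to 12.7 with 1 list left out. The cause of these turns was not tested. With at most 10 summits per list, 1 summit moves such a share by 10 points or more, and the smallest permutation p is 0.333.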

Other observations

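A peak of both shMettl14 lists and neither shCTR list lay in an intron of Bmp4 and so outside the exon rule. Its summit was at position 46387797 of chromosome 14 in shMettl14 A, with 20 fragments over a background of 1.65 (fold enrichment 7.91, percentile 56.1), and at 46387786 in shMettl14 B, with 16 fragments over 1.45 (fold enrichment 6.95, percentile 36.4). The place is also an exon of Gm15222 (ENSMUSG00000086746.2, chr14:46387519-46389282), a gene on the plus strand, opposite to Bmp4, and the lists give no strand. The file of intervals shared by both replicates holds it for shMettl14 (chr14:46387687-46387897) and not for shCTR, with a start before that of either deposited interval. Of all regions, 1.79% were found in both shMettl14 lists and neither shCTR list.

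In the files of shared intervals, Sox9, Msx2 and Bmp4 were the only calcification genes, with 5 intervals for shCTR and 4 for shMettl14, and each overlapped an interval of the other file. Of all 6706 and 6440 intervals, 17.0% and 15.5% did not.

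The shift of summits toward the 3′ end was a property of the lists as a whole. Along the chromosome it was 24.5 nt for 2111 regions of plus-strand genes and -25.5 nt for 2089 regions of minus-strand genes, so it followed the direction of transcription. Among the 1549 regions with 1 summit in each list, 60.2% shifted toward the 3′ end in both shMettl14 lists and 1.87% toward the 5′ end. Relative to the mean of the 4 lists the median position was -20 nt in shCTR B, -4.75 in shCTR A, 8.75 in shMettl14 B and 16.3 in shMettl14 A. The shortest interval fell in the same order, 170, 141, 112 and 97 bp. The part of interval length in the shift was not tested.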
